A study of Mus musculus with 6 samples.

Results

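The 42 genes described here act in the endoplasmic reticulum, where secreted and membrane proteins are made and folded, and in the unfolded protein response that watches over it. They were chosen by symbol from the 53677 rows of the deposited table and fall into 18 chaperones and folding enzymes, 10 genes of the translocon and signal peptidase, 8 degradation genes and 6 stress sensors and factors. RNA came from ST-HSC (short-term hematopoietic stem cells), a bone marrow progenitor population sorted, per the labels, as Lin- ckit+ CD48+ CD150- cells, that is, without lineage markers or CD150 and with Kit and CD48. The gate as labelled names no Sca-1. The dnTCF4 group came from 3 mice that express a dominant-negative TCF4 made to block transcription by β-catenin with TCF and LEF factors (genotype label dnTCF4+/+). The WT group came from 3 wild-type mice (genotype label dnTCF4-/-), and both groups were on the C57BL/6J background. Neither the promoter that drives the transgene, nor the cells in which it is active, nor the ages of the mice are given in the sources used here.

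Proteins bound for secretion enter the endoplasmic reticulum through the Sec61 channel while they are being translated, and signal peptidase removes their leader peptide. Chaperones such as BiP (Hspa5), GRP94 (Hsp90b1) and calreticulin, with the protein disulfide isomerases, fold them, and chains that fail are passed back to the cytosol for degradation. When unfolded chains build up, the sensors IRE1, PERK and ATF6 raise the output of chaperone, translocation and degradation genes, a programme also used at high level by antibody-secreting plasma cells.

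Each library held 57400000 to 110900000 counted reads in dnTCF4 and 61800000 to 67700000 in WT. Immunoglobulin genes took 6.33%, 3.27% and 6.00% of the summed RPKM (reads per kilobase of gene length, relative to the reads counted in the library) in dnTCF4 replicates 1, 2 and 3, against 44.1%, 26.7% and 25.5% in WT replicates 1, 2 and 3. Of 10 plasma cell markers, 9 were tested and 8 had lower values in dnTCF4, and their summed RPKM was 670, 307 and 657 in dnTCF4, against 7850, 2722 and 2629 in WT. Pax5, the B cell identity factor that plasma cells switch off, was at 0.0466 RPKM or less in every library. It is 1 of 11 B lineage markers, which summed to 154, 102 and 139 RPKM in dnTCF4, against 220, 127 and 132 in WT. Of these 11, 7 were tested, and 5 had lower and 2 higher values in dnTCF4. All 8 neutrophil markers had higher values in dnTCF4, and their summed RPKM was 3036, 3678 and 7512 in dnTCF4, against 608, 735 and 3072 in WT. The 7 erythroblast markers summed to 51.1, 70.7 and 93.5 RPKM in dnTCF4, against 17.6, 21.2 and 29.2 in WT. Of the sort genes, Kit was at 74.8, 97.1 and 35.5 RPKM in dnTCF4, against 47.3, 83.7 and 61.7 in WT, and Slamf1, which encodes CD150, was at 0.744 to 1.18 in dnTCF4 and 0.792 to 1.15 in WT. Cd48 was higher in dnTCF4 in each of 18 fits, by 0.16 to 0.69 on the log2 scale (limma adjusted p from 0.082 to 0.99). Of 5 tested sort and progenitor genes, 2 had higher and 3 lower values in dnTCF4. In bulk RNA, fewer cells of a type and less RNA per cell cannot be told apart, and the part of these other cells in the results below was not tested except where a value is given.

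Of the 42 genes, 41 had the mean of 1 RPKM required of a tested gene, and 0 of them changed between the genotypes (limma on log2(RPKM + 1), Benjamini-Hochberg adjusted p under 0.05 over 11326 genes). By that rule 34 genes changed in the whole table, which is 0.300% of those tested. At an unadjusted limma p under 0.05, 1 of the 41 was below the threshold, Txndc5, against 9.62% of all genes. Voom on recovered reads also called 0, with 1 of 35 testable members (2.86%) under an unadjusted p of 0.05. The share of all genes in that fit is not given here. The 1 gene that could not be tested, the pseudokinase Trib3, a target of the PERK arm, was at 0.0984 to 0.209 RPKM in dnTCF4 and 0.0278 to 0.282 in WT.

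The values of the 41 genes leaned low in dnTCF4 while those of the transcriptome leaned high. A log2 fold change, always dnTCF4 minus WT on the log2(RPKM + 1) scale, was below 0 for 25 of the 41 and above 0 for 16, with a median of -0.07. For all genes it was below 0 for 31.5%, with a median of 0.14, and 34 of the 41 lay below that median. RPKM is relative to all counted reads, and the immunoglobulin share of reads was smaller than its share of summed RPKM. It was 1.55%, 0.732% and 1.53% of reads in dnTCF4 replicates 1, 2 and 3, against 14.8%, 7.32% and 7.22% in WT replicates 1, 2 and 3. Rescaled to the reads that remain without immunoglobulin genes, 34 were lower and 7 higher, with a median of -0.19 against 0.04 for all genes, of which 43.7% were then lower. After median ratio scaling, 36 were lower and 5 higher, with a median of -0.28 against -0.05 for all genes, of which 58.6% were then lower.

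**Figure D1:**
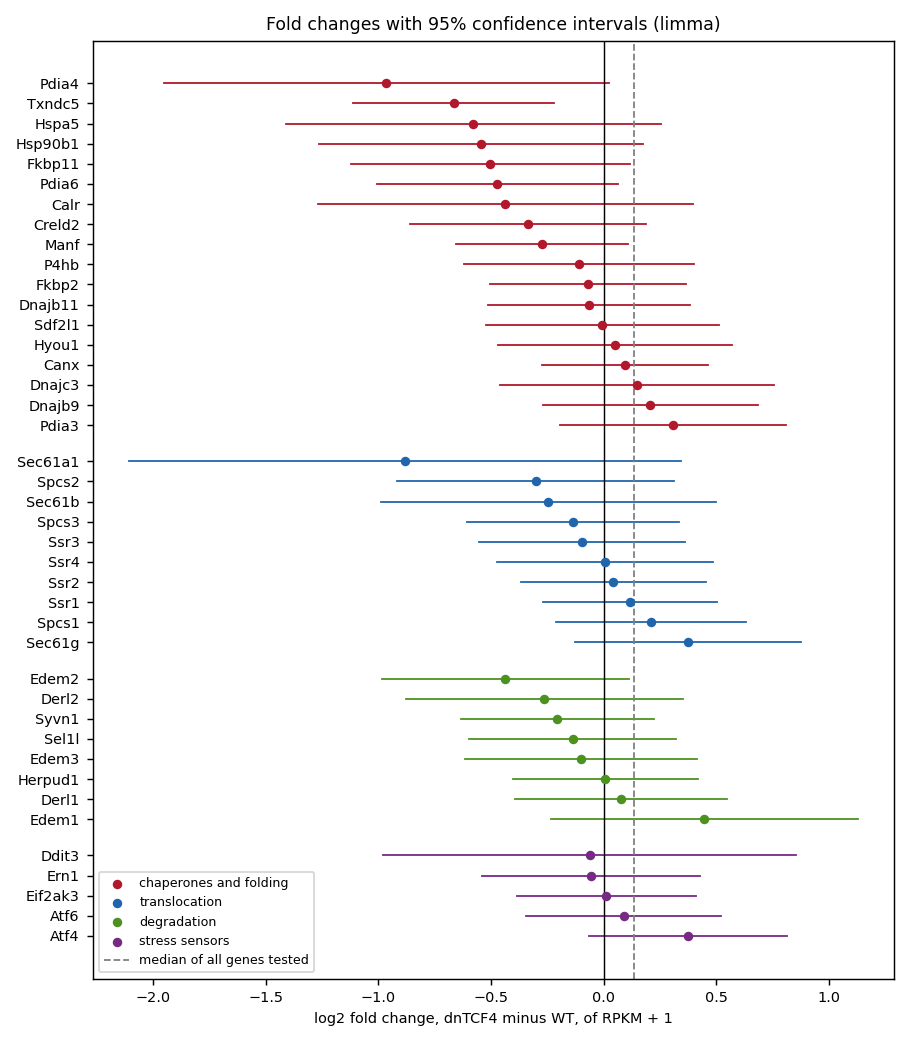
Log2 fold change (dnTCF4 minus WT, of RPKM + 1) of the 41 tested genes, in 4 groups by role, with 95% confidence intervals from limma. Every interval except that of Txndc5 crosses 0, and 34 of 41 points lie left of the dashed line that marks the median of all genes (0.14).

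The 3 values of each genotype did not overlap for 6 of the 41. Pdia4, Pdia6, Manf and Txndc5 were lower in all 3 dnTCF4 libraries than in any WT library, which is 9.76% of the 41, where 2.26% of all genes did the same. Sec61g and Atf4 were higher in all 3, which is 4.88%, where 15.4% of all genes did the same. Of Sec61g and Atf4, only Atf4 (2.44% of the 41) stayed apart on both of the other scales. Among all genes, 7.17% were apart and higher with immunoglobulin left out and 5.17% after median ratio scaling. Pdia4, Pdia6, Manf and Txndc5 stayed apart and lower on both of these scales. Deviations from the group mean correlated at 0.17, 0.35 and 0.30 between same-numbered libraries, so pairs were also compared. The labels give the numbers only, and the pairing rests on these modest correlations in the same data. Exons of 15 of the 42, among them Txndc5, Pdia4, Pdia6, Manf and Sec61a1, overlap those of another annotated gene, and without strand such reads cannot be told apart. In every pair, 12 of the 41 (29.3%) were lower in dnTCF4 and 6 (14.6%) higher, against 4.78% and 37.3% of all genes. Once libraries were rescaled without immunoglobulin, 17 of the 41 (41.5%) were lower in every pair, against 9.14% of genes, and 8 (19.5%) did not overlap and were lower, against 3.35%. After median ratio scaling, 22 (53.7%) were lower in every pair, against 18.8%, and 11 (26.8%) did not overlap and were lower, against 6.12%.

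**Figure D2:**
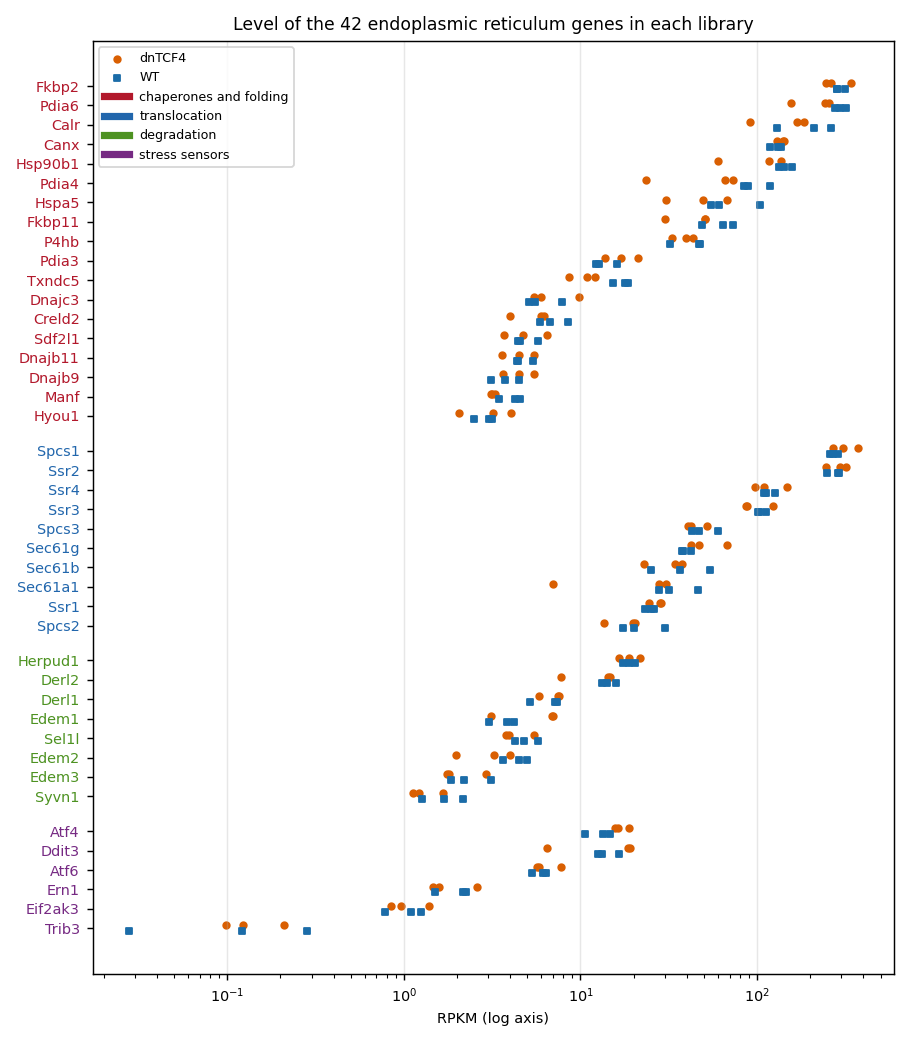
RPKM of the 42 genes in each of the 6 libraries (log axis; circles dnTCF4, squares WT), grouped by role and ordered by mean level. Levels span from Trib3 at 0.0278 to 0.282 RPKM to Spcs1 at 258.2 to 372.3, and Sec61a1 in dnTCF4 replicate 3 (6.99 RPKM) stands far from its other 5 values.

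The chaperones and folding enzymes had the lowest median of the 4 groups in the limma fits, whereas by voom on recovered reads, with fewer genes testable, that of the degradation genes was lower (-0.14, against -0.11 for the chaperones). In dnTCF4, 13 of the 18 had lower and 5 higher values, and 7 were lower in every pair. The median log2 fold change of the 18 was -0.19. It was -0.40 by median ratio scaling, and -0.31 when immunoglobulin genes were left out. Their summed level was 1275, 1226 and 907 RPKM in dnTCF4 replicates 1, 2 and 3, against 1257, 1576 and 1368 in WT replicates 1, 2 and 3. On this scale the genotypes overlapped, with dnTCF4 replicates 1 and 2 level with WT replicate 1. On the other scales they did not. With immunoglobulin genes left out the sums were 1295, 1235 and 921 in dnTCF4, against 1475, 1700.4 and 1474 in WT, and after median ratio scaling they were 1201, 1161 and 759 in dnTCF4, against 1514, 1695 and 1285 in WT. On every scale dnTCF4 replicate 3 was lowest.

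Many promoters of this programme carry the ER stress response element (ERSE), through which ATF6 and XBP1 act together with NF-Y. The letters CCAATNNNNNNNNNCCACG were searched on both strands in RefSeq promoters of GRCm38.p6, from 250 bases before to 50 after each annotated start. Of 42 genes, 35 had a promoter in that set, and 8 of the 35 (22.9%) held the element, against 37 of 27025 genes (0.137%). The shorter ERSE-II, ATTGG and CCACG with 1 base between them, was in 2 of 35, Herpud1 and Dnajb11, against 0.0444% of genes. The UPRE letters TGACGTGG, a site known for XBP1 and ATF6, were in 1 of 35, Txndc5, against 0.714% of genes. No such site overlapped a site of another of these motifs among the 35. A further motif searched, CARE (TGATGNAA), was in 3 of 35 (8.57%), Txndc5, Herpud1 and Trib3, against 4.51% of genes, and is not printed. The upstream ERSE, ERSE-II and UPRE sites are printed below because they mark which of the genes carry these elements. Each is read 5′ to 3′ on the strand of its gene, with the element in capitals and 5 bases on each side.
Hspa5: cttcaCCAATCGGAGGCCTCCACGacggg
Hsp90b1 distal: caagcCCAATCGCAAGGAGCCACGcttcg
Hsp90b1 proximal: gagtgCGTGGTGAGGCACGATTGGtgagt
Calr: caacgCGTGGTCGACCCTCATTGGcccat
Canx: attgaCCAATCACCACGCTCCACGaagaa
Pdia6: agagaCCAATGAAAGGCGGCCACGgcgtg
Dnajc3: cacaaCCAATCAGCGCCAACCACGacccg
Creld2: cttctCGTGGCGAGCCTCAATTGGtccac
Syvn1: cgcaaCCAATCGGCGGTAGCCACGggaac
Herpud1: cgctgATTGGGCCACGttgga
Txndc5: gccgcTGACGTGGcgcta
The proximal Hsp90b1 site and those of Calr and Creld2 are on the opposite strand, so they begin with CGTGG and end with ATTGG. With their flanks, the windows lie in GRCm38.p6 as follows, with the span of the element from the RefSeq start in brackets. That of Hspa5 is chr2:34772020-34772048 on the plus strand (-65 to -47). The distal Hsp90b1 window is chr10:86705633-86705661 on the minus strand (-212 to -194) and the proximal one chr10:86705528-86705556 on the minus strand (-107 to -89). Calr has chr8:84847070-84847098 on the minus strand (-162 to -144) and Canx chr11:50325795-50325823 on the minus strand (-145 to -127). Pdia6 has chr12:17266486-17266514 on the plus strand (-98 to -80) and Dnajc3 chr14:118937822-118937850 on the plus strand (-105 to -87). Creld2 has chr15:88819515-88819543 on the plus strand (-126 to -108) and Syvn1 chr19:6046527-6046555 on the plus strand (-44 to -26). Herpud1 has chr8:94386372-94386392 on the plus strand (-52 to -42), and a Txndc5 start has chr13:38528040-38528057 on the minus strand (-138 to -131). The 10 genes with ERSE or ERSE-II had log2 fold changes from -0.58 for Hspa5 to 0.15 for Dnajc3, 7 below 0 and 3 above, with a median of -0.27. A match of letters is a description and does not show that a factor binds there.

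Hspa5 (BiP, GRCm38 chromosome 2, 34771970 to 34777547), the main Hsp70 chaperone of the compartment and the classical readout of the response, was at 49.4, 67.9 and 30.3 RPKM in dnTCF4, against 54.9, 103.5 and 60.9 in WT. Each dnTCF4 library was below the WT library of its number, but the groups overlapped. The log2 fold change was -0.58 (SE 0.35, limma adjusted p = 0.65), and without dnTCF4 replicate 3 it was -0.27. Hsp90b1 (GRP94), the Hsp90 of the compartment, was at 116.7, 135.7 and 60.2 RPKM in dnTCF4, against 142.9, 156.6 and 133.8 in WT. Again the dnTCF4 library was lower in every pair, and replicate 3 was lowest. The log2 fold change was -0.54 (SE 0.31, limma adjusted p = 0.62), or -0.19 without dnTCF4 replicate 3.

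The disulfide isomerases did not share a direction. Txndc5 (ERp46, chromosome 13, 38500079 to 38528824), an isomerase rich in plasma cells, was at 10.9, 8.65 and 12.1 RPKM in dnTCF4, against 18.5, 15.2 and 17.9 in WT. The groups did not overlap, with 10.5 ± 1.75 in dnTCF4 and 17.2 ± 1.76 in WT (SD, n = 3 each). The difference was -0.67 on the log2 scale (SE 0.19, 95% interval -1.11 to -0.22), with a limma adjusted p of 0.31, or 0.20 in the fit with the replicate block. Over 18 fits its log2 fold change stayed between -0.88 and -0.54, and its adjusted p between 0.14 and 0.67.

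Pdia4 (ERp72) was at 65.8, 72.9 and 23.5 RPKM in dnTCF4, against 88.3, 117.8 and 83.8 in WT. All dnTCF4 values were lower, and replicate 3 stood far below the other two. Its log2 fold change was -0.96 (SE 0.42, limma adjusted p = 0.53), and without dnTCF4 replicate 3 it was -0.46. Pdia6 (P5), a partner of BiP, was at 242.4, 256.0 and 154.9 RPKM in dnTCF4, against 295.4, 317.4 and 274.6 in WT, again without overlap. On the log2 scale it differed by -0.47 (SE 0.23, limma adjusted p = 0.58), or -0.24 without dnTCF4 replicate 3. In contrast, Pdia3 (ERp57), the isomerase that works with calnexin and calreticulin, was at 17.0, 13.8 and 21.2 RPKM in dnTCF4, against 12.7, 12.2 and 16.1 in WT. It was higher in dnTCF4 in every pair as deposited, while the groups overlapped. Its log2 fold change was 0.31, or 0.19 with immunoglobulin genes left out. After median ratio scaling it was 0.09, and Pdia3 was no longer higher in every pair. P4hb, the founding member of the family, ranged from 32.8 to 43.5 RPKM in dnTCF4 and from 32.2 to 47.3 in WT. Its log2 fold change was -0.11 as deposited and -0.34 after median ratio scaling, where its groups were apart.

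Fkbp11, a peptidyl-prolyl isomerase of secretory cells, was at 50.9, 50.7 and 30.3 RPKM in dnTCF4, against 49.0, 63.9 and 72.6 in WT (log2 fold change -0.50, SE 0.26, limma adjusted p = 0.60, or -0.26 without dnTCF4 replicate 3). Only the first pair went the other way. Manf, a secreted stress-induced protein, was at 3.28, 3.11 and 3.16 RPKM in dnTCF4, against 3.45, 4.53 and 4.26 in WT (log2 fold change -0.27, SE 0.16, limma adjusted p = 0.64). Its dnTCF4 values were close together and all below WT, and its log2 fold change without dnTCF4 replicate 3 was -0.27 as well.

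The lectin chaperones that hold glycoproteins differed in direction as deposited, but not on the other scales. Calreticulin (Calr) was at 168.0, 185.1 and 91.6 RPKM in dnTCF4, against 129.3, 263.3 and 208.6 in WT. WT replicate 1 was lower and WT replicate 2 higher than dnTCF4 replicates 1 and 2, so the groups overlapped. Calnexin (Canx), its membrane-bound relative, was at 142.1, 129.996 and 139.8 RPKM in dnTCF4, against 118.1, 135.9 and 131.5 in WT, among the tightest values of the 42. The log2 fold change was 0.10 for Canx and -0.44 for Calr as deposited. With immunoglobulin genes left out these were -0.03 and -0.57, and after median ratio scaling -0.14 and -0.67.

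The BiP cochaperones Dnajb9, Dnajb11 and Dnajc3, the stress-induced genes Sdf2l1, Hyou1 and Creld2, and the isomerase Fkbp2 complete the group. Apart from Fkbp2, at 244.2 to 340.5 RPKM in dnTCF4 and 281.6 to 313.3 in WT, they were expressed at low level, from 2.06 RPKM (Hyou1) to 9.77 (Dnajc3) in dnTCF4 and from 2.49 (Hyou1) to 8.52 (Creld2) in WT. As deposited, Creld2 was lower and Dnajc3 higher in dnTCF4 in every pair, and the groups of all 7 overlapped. Creld2 stayed lower in every pair on the other scales, whereas Dnajc3 was no longer higher in every pair. The log2 fold change of Dnajc3 was 0.15 as deposited, 0.04 with immunoglobulin genes left out and -0.05 after median ratio scaling. On that last scale the groups of Dnajb11 and Creld2 were apart, with dnTCF4 lower.

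The split among translocation genes depended on the scale. In dnTCF4, 5 of the 10 had lower and 5 higher values as deposited, but 8 were lower and 2 higher with immunoglobulin genes left out, and 9 lower and 1 higher after median ratio scaling. Their median log2 fold change was -0.05 as deposited, 0.046 by quantile normalization, -0.18 with immunoglobulin genes left out and -0.28 after median ratio scaling. Their summed level was 996, 943 and 1104 RPKM in dnTCF4, against 923, 1012 and 999 in WT. The sums overlapped, and dnTCF4 replicate 3, lowest for the chaperones, was the highest here. It was highest also with immunoglobulin genes left out (1121), but not after median ratio scaling (924), where dnTCF4 ranged from 893 to 939 and WT from 939 to 1113.

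The 3 subunits of the Sec61 channel went separate ways. Sec61a1, the pore-forming subunit (chromosome 6, 88503579 to 88518905), was at 27.7, 30.4 and 6.99 RPKM in dnTCF4, against 27.9, 46.3 and 31.9 in WT. Its dnTCF4 replicate 1 was level with WT replicate 1, and the low value of replicate 3 rests on 2699 reads. The log2 fold change was -0.88 (SE 0.52, limma adjusted p = 0.64), and without dnTCF4 replicate 3 it was -0.25. Sec61b was at 37.6, 34.2 and 22.9 RPKM in dnTCF4, against 25.2, 54.3 and 36.4 in WT (log2 fold change -0.25, SE 0.32, limma adjusted p = 0.76). Its sign turned to 0.028 without WT replicate 2. Sec61g, the small subunit that braces the channel, was at 46.7, 42.5 and 67.2 RPKM in dnTCF4, against 37.3, 38.2 and 42.4 in WT. All dnTCF4 values were higher, by a narrow margin for replicate 2. Its log2 fold change was 0.37 (SE 0.21, limma adjusted p = 0.63), and 0.18 without dnTCF4 replicate 3.

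The translocon-associated complex (Ssr1 to Ssr4), which helps chains enter the channel, differed little between the genotypes as deposited. Ssr1 was at 24.3, 28.7 and 28.2 RPKM in dnTCF4, against 23.2, 26.2 and 25.1 in WT. It was a little higher in every pair (log2 fold change 0.12, SE 0.16, limma adjusted p = 0.78), but its sign turned by median ratio scaling (-0.11) and when immunoglobulin genes were left out (-0.0079). Ssr2 ranged from 245.1 to 316.8 RPKM in dnTCF4 and 248.9 to 292.0 in WT. Ssr3 ranged from 87.1 to 122.9 in dnTCF4 and 100.5 to 112.3 in WT, and Ssr4 from 97.5 to 147.9 in dnTCF4 and 109.8 to 126.9 in WT. For all 4 genes the values of the genotypes overlapped. After median ratio scaling the log2 fold changes of Ssr2, Ssr3 and Ssr4 were -0.19, -0.33 and -0.23, and Ssr2 was lower in every pair.

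Signal peptidase subunits were likewise mixed. Spcs1 was at 307.4, 269.4 and 372.3 RPKM in dnTCF4, against 286.3, 258.2 and 269.2 in WT (log2 fold change 0.21, SE 0.18, limma adjusted p = 0.71). Higher in every pair as deposited, it was at -0.02 after median ratio scaling. Spcs2 was at 19.8, 20.4 and 13.6 RPKM in dnTCF4, against 17.5, 30.1 and 20.2 in WT (log2 fold change -0.30, SE 0.26, limma adjusted p = 0.71, or -0.12 without dnTCF4 replicate 3). Spcs3 ranged from 40.8 to 51.7 in dnTCF4 and 42.5 to 60.1 in WT, lower in dnTCF4 in every pair.

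Degradation genes were lower in abundance, from 1.13 RPKM (Syvn1) to 21.6 (Herpud1) in dnTCF4. In dnTCF4, 5 of the 8 had lower and 3 higher values as deposited, against 7 lower and 1 higher with immunoglobulin genes left out, after median ratio scaling, by quantile normalization and with array weights. Their median log2 fold change was -0.12 as deposited, -0.22 with immunoglobulin genes left out, -0.29 after median ratio scaling and 0.0071 among those with a mean of at least 5 RPKM. Their summed level was 56.1, 56.7 and 51.5 RPKM in dnTCF4, against 51.6, 60.0 and 59.0 in WT, and as deposited the genotypes overlapped for all 8 genes. With immunoglobulin genes left out the sums were apart, at 52.3 to 57.2 in dnTCF4 and 60.6 to 64.7 in WT.

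The EDEM proteins, which trim mannose from glycoproteins that are to be degraded, did not share a direction. Edem1 was at 6.86, 6.99 and 3.10 RPKM in dnTCF4, against 3.83, 3.03 and 4.22 in WT. Replicates 1 and 2 of dnTCF4 were above every other library, and replicate 3 was next to lowest. A log2 fold change of 0.45 was fitted (SE 0.29, limma adjusted p = 0.66), and without dnTCF4 replicate 3 it was 0.76 (adjusted p = 0.28). Edem2 was at 3.97, 3.22 and 1.96 RPKM in dnTCF4, against 3.66, 5.01 and 4.49 in WT (log2 fold change -0.44, SE 0.23, limma adjusted p = 0.61, or -0.23 without dnTCF4 replicate 3). Edem3 was at 1.81, 1.75 and 2.92 RPKM in dnTCF4, against 1.86, 2.18 and 3.12 in WT. It was slightly lower in every pair, with a log2 fold change of -0.10 (SE 0.22, limma adjusted p = 0.85) that was 0.050 without WT replicate 3.

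The ubiquitin ligase and its partners differed little. Syvn1 (HRD1), the ligase, was at 1.13, 1.66 and 1.22 RPKM in dnTCF4, against 1.26, 1.69 and 2.15 in WT (log2 fold change -0.21, SE 0.18, limma adjusted p = 0.72). Sel1l, its adaptor, was at 3.95, 3.81 and 5.44 RPKM in dnTCF4, against 4.24, 4.78 and 5.73 in WT (log2 fold change -0.14, SE 0.20, limma adjusted p = 0.78). Both were lower in every pair. Without WT replicate 3 the log2 fold changes were -0.088 for Syvn1 and -0.040 for Sel1l, and Sel1l was also closer to 0 without dnTCF4 replicates 1 (-0.081) or 2 (-0.060). Derl2, a membrane protein of the retrotranslocation step, was at 14.3, 14.7 and 7.71 RPKM in dnTCF4, against 14.2, 15.9 and 13.2 in WT (log2 fold change -0.26, SE 0.26, limma adjusted p = 0.73, or 0.01 without dnTCF4 replicate 3). Its relative Derl1 ranged from 5.78 to 7.59 in dnTCF4 and 5.18 to 7.34 in WT. Herpud1, a scaffold of the ligase and a sensitive target of the response, was at 16.6, 18.8 and 21.6 RPKM in dnTCF4, against 17.5, 20.2 and 18.8 in WT. The groups lay on top of each other, with a log2 fold change of 0.01 (SE 0.18, 95% confidence interval -0.40 to 0.42, limma adjusted p = 0.99), whose sign turned to -0.12 with immunoglobulin genes left out.

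Among the stress sensors, too, the direction depended on the scale. In dnTCF4, 2 of the 5 tested had lower and 3 higher values as deposited, against 4 lower and 1 higher after median ratio scaling, with immunoglobulin genes left out and by quantile normalization. Their median log2 fold change was 0.01, or -0.11 by median ratio scaling, or 0.22 without dnTCF4 replicate 3. Ern1 (IRE1), which splices Xbp1 RNA, was at 1.59, 1.46 and 2.60 RPKM in dnTCF4, against 1.51, 2.15 and 2.26 in WT (log2 fold change -0.06, SE 0.21, limma adjusted p = 0.91). Atf6 was at 5.66, 7.75 and 5.84 in dnTCF4, against 6.11, 5.31 and 6.39 in WT (log2 fold change 0.09, SE 0.18, limma adjusted p = 0.84). Eif2ak3 (PERK) was at 0.968, 0.843 and 1.39 in dnTCF4, against 1.098, 0.782 and 1.26 in WT (log2 fold change 0.01, SE 0.17, limma adjusted p = 0.98). The values of all 3 sensors overlapped, and each of these signs turned in at least 1 of the other fits.

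Downstream of PERK, Atf4 and Ddit3 differed. Atf4, whose protein is made when the initiation factor eIF2 is phosphorylated, was at 16.2, 15.8 and 18.9 RPKM in dnTCF4, against 10.7, 13.4 and 14.7 in WT. Every dnTCF4 value was above every WT value. On the log2 scale the difference was 0.38 (SE 0.19, 95% interval -0.06 to 0.82, limma adjusted p = 0.58), and 0.16 after median ratio scaling. Ddit3 (CHOP), the pro-apoptotic target of ATF4, was at 18.7, 19.2 and 6.47 RPKM in dnTCF4, against 12.6, 16.5 and 13.2 in WT. Its dnTCF4 replicates 1 and 2 were the highest of the 6 and replicate 3 the lowest. Over all 6 libraries the log2 fold change was -0.06 (SE 0.39, limma adjusted p = 0.95), and it was 0.41 (adjusted p = 0.64) without dnTCF4 replicate 3. The Ddit3 locus shares exon sequence with Mars, so reads of both genes may not be fully told apart.

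Several members therefore turned on a single library, dnTCF4 replicate 3. It held the lowest of the 6 values for 15 of the 41 (36.6%), against 24.3% of all genes, and the highest for 14 (34.1%), against 42.4%. WT replicate 2 held the highest value for 12 (29.3%), against 16.3% of all genes. Both at once, WT replicate 2 highest and dnTCF4 replicate 3 lowest, held for 11 of the 41 (26.8%), against 11.9% of all genes and 15 of 72 other endoplasmic reticulum genes (20.8%). It held for 10 of the 41 (24.4%) against 14.9% of genes with immunoglobulin left out, and for 12 (29.3%) against 19.0% after median ratio scaling. As deposited the 11 were Hspa5, Hsp90b1, Calr, Pdia4, Pdia6, Sec61a1, Sec61b, Spcs2, Spcs3, Edem2 and Derl2. Against the mean of the other 5 libraries, log2(RPKM + 1) in dnTCF4 replicate 3 differed by -2.06 for Sec61a1, -1.79 for Pdia4, -1.17 for Hsp90b1 and -1.08 for Hspa5.

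**Figure D3:**
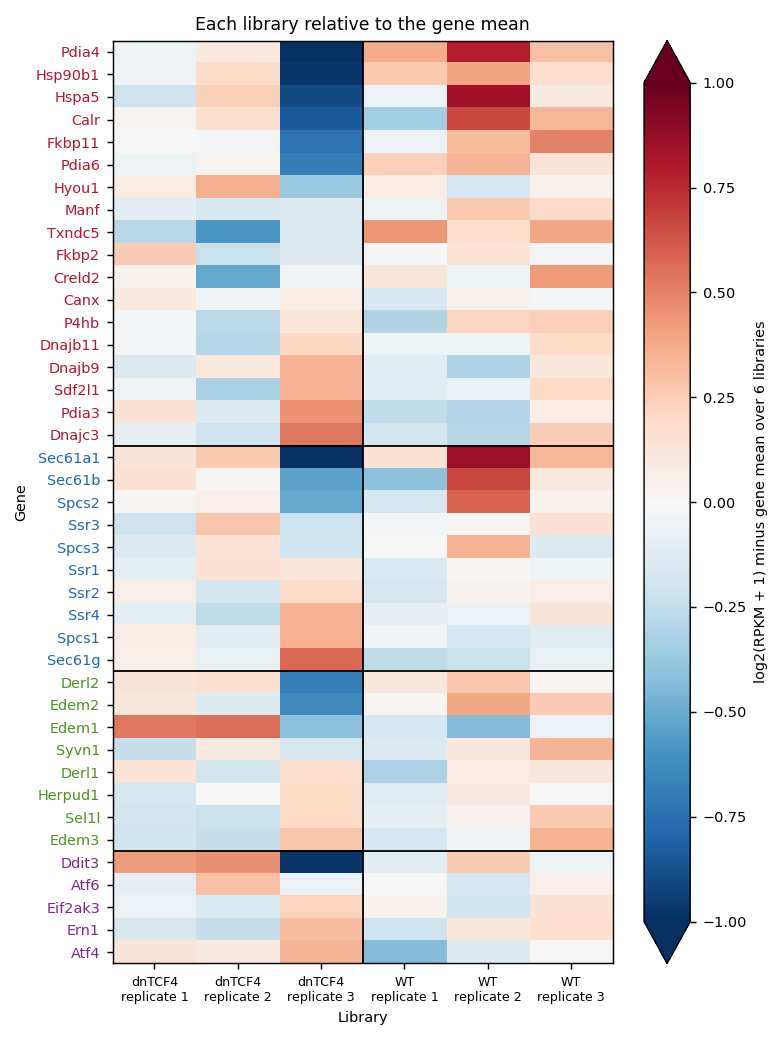
Log2(RPKM + 1) of the 41 tested genes in each library minus the mean of the gene over the 6 libraries (red higher, blue lower, scale limited to 1 log2 unit either way), with the 4 groups separated by lines. dnTCF4 replicate 3 holds both deep blue cells (Pdia4, Sec61a1, Ddit3) and red ones (Sec61g, Dnajc3), and WT replicate 2 is red for Hspa5, Pdia4 and Sec61a1.

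dnTCF4 replicate 3 had 57400000 counted reads, the fewest of the 6, and WT replicate 2 had 61800000. The part of depth was not tested. dnTCF4 replicate 3 also held the highest summed neutrophil markers (7512 RPKM), whose part in the low values was not tested. Deviation from the gene mean was set against GC content over 10916 genes other than immunoglobulin genes. Spearman rho was 0.37, -0.13 and -0.31 in dnTCF4 replicates 1, 2 and 3, and -0.06, 0.30 and 0.17 in WT replicates 1, 2 and 3. In size rho was largest in dnTCF4 replicate 1, followed by dnTCF4 replicate 3 and WT replicate 2, which had opposite signs. Over the 41 genes alone rho was 0.20, -0.40 and -0.04 in dnTCF4, and -0.05, 0.15 and 0.36 in WT. The part of GC content was not tested. Without dnTCF4 replicate 3, 27 of 40 testable members were lower and 13 higher, with a median log2 fold change of -0.10. Of all genes in that fit, 26.8% were lower, with a median of 0.11. By limma 0 of the 40 changed, and 3 had an unadjusted p under 0.05, Txndc5 and Pdia4, which were lower, and Edem1, which was higher. The share of all genes under that threshold in this fit is not given here, so nothing is concluded from the count. In the fit of all 6 libraries the share of all genes was 9.62%.

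The immunoglobulin RPKM of each library was set beside these genes, because antibody-secreting cells lean on this machinery. Immunoglobulin genes summed to 27994, 12933 and 27614 RPKM in dnTCF4 replicates 1, 2 and 3, against 262826, 131330 and 128038 in WT replicates 1, 2 and 3. The libraries form 2 clusters by genotype, so no correlation over the 6 is given, and the order within each genotype was compared instead. WT replicate 1 held the most immunoglobulin of WT. Its chaperone sum was the lowest of WT as deposited (1257 RPKM), level with the lowest with immunoglobulin genes left out (1475), and between the other two after median ratio scaling (1514). dnTCF4 replicate 2 held the least immunoglobulin, and its chaperone sum lay between those of the other two dnTCF4 libraries on each of these scales.

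An order like that of immunoglobulin (highest WT value in replicate 1, lowest dnTCF4 value in replicate 2) was met by 2 of the 41, Txndc5 and Spcs1, which is 4.88%, against 7.35% of all genes. With immunoglobulin genes left out it was again 2 of the 41, against 10.3% of genes, but after median ratio scaling it was 8 of the 41 (19.5%), against 13.6%. Of 9 tested plasma cell markers, 5 had that order as deposited and 6 on each of the other scales. Among them, Jchain, which joins IgM and IgA chains, was at 611.5, 284.1 and 614.7 RPKM in dnTCF4, against 7568, 2592 and 2482 in WT (log2 fold change -2.94, SE 0.50, limma adjusted p = 0.10). Mzb1, an endoplasmic reticulum cochaperone of B and plasma cells, was at 41.0, 12.3 and 21.03 in dnTCF4, against 214.4, 88.5 and 103.4 in WT (log2 fold change -2.45, SE 0.48, limma adjusted p = 0.14, or 0.031 in the fit with the replicate block). Igkc, the kappa constant gene, fell by 2.96 on the log2 scale (limma adjusted p = 0.042) and Ighm, the mu constant gene, fell by 2.65 (limma adjusted p = 0.042). The log2 fold changes of the 41 lay between -0.96 and 0.45, so none approached those sizes.

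**Figure D4:**
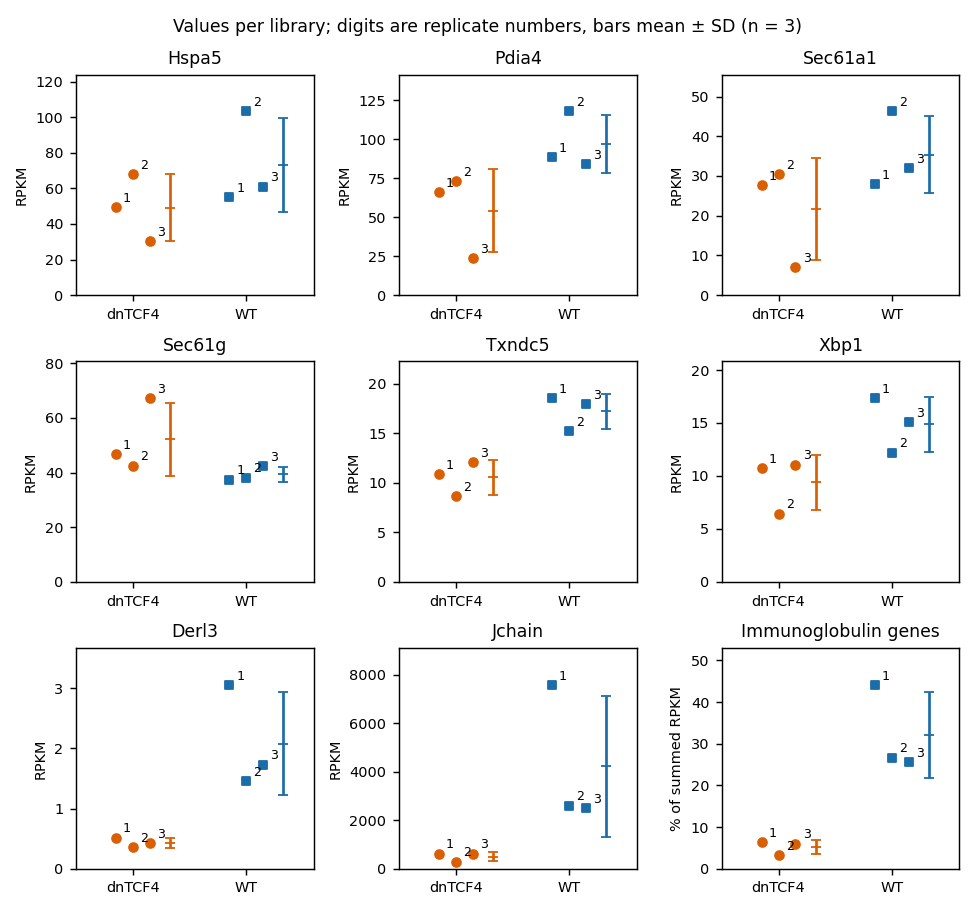
RPKM of 8 genes, and the immunoglobulin share of summed RPKM, in each library (circles dnTCF4, squares WT, digits the replicate number, bars mean ± SD, n = 3 each). Txndc5, Pdia4, Xbp1, Derl3 and Jchain are lower in all 3 dnTCF4 libraries than in any WT library. For Hspa5, Pdia4 and Sec61a1 dnTCF4 replicate 3 is lowest and WT replicate 2 highest.

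The wider pathway held 79 further genes, of which 72 were tested and 0 changed by limma. At an unadjusted limma p under 0.05 there were 2 (2.78%), Derl3 and Xbp1, against 9.62% of all genes. Values in dnTCF4 were higher for 44 and lower for 28. Their median log2 fold change was 0.05, against -0.07 for the 41 and 0.14 for all genes. With immunoglobulin genes left out, 27 were higher and 45 lower.

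Xbp1, the transcription factor that IRE1 activates and that plasma cells need for secretion, was at 10.8, 6.43 and 11.1 RPKM in dnTCF4, against 17.3, 12.2 and 15.1 in WT. The groups did not overlap, and, as for immunoglobulin, WT replicate 1 was highest of WT and dnTCF4 replicate 2 lowest of dnTCF4. Its log2 fold change was -0.63 (SE 0.25, limma adjusted p = 0.49, or 0.23 in the fit with the replicate block). RPKM per gene does not tell spliced from unspliced Xbp1. Derl3, a derlin expressed in secretory cells, was at 0.517, 0.357 and 0.420 RPKM in dnTCF4, against 3.05, 1.45 and 1.73 in WT. Of the tested genes of both lists it had the lowest unadjusted p, with a log2 fold change of -1.07 (SE 0.21, limma adjusted p = 0.14, or 0.076 in the fit with the replicate block). It was called in 1 of the 15 fits that tested it, the one with the replicate block and without immunoglobulin genes that was added after seeing the data (log2 fold change -1.17, limma adjusted p = 0.030). Over these fits its adjusted p ranged from 0.030 to 0.36. Every dnTCF4 value of Derl3 lay below the mean of 1 RPKM required of a tested gene, so it was tested only through its WT values. Without WT replicate 1 it was not tested. Since its values lie near the pseudocount, its log2 fold change was -1.98 with a pseudocount of 0.1 and -2.21 by voom.

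Other arms of the pathway gave smaller differences. Sec62, which helps some chains enter the channel after translation, was at 48.8, 55.2 and 59.2 RPKM in dnTCF4, against 43.4, 38.1 and 42.2 in WT (log2 fold change 0.39, SE 0.17, limma adjusted p = 0.52). Srp9, of the signal recognition particle, was at 3.28, 2.79 and 4.37 in dnTCF4, against 2.43, 2.66 and 2.45 in WT (0.34, adjusted p = 0.61), and Ufd1, of the complex that extracts chains for degradation, at 41.1, 43.5 and 44.7 in dnTCF4, against 37.6, 35.0 and 35.4 in WT (0.25, adjusted p = 0.65). All 3 were higher in every dnTCF4 library than in any WT library as deposited, which held for 10 of the 72 (13.9%), near the 15.4% of all genes. On the other scales it held for 0 of the 72, against 7.17% of genes with immunoglobulin left out and 5.17% after median ratio scaling. Of the oligosaccharyltransferase subunits, which attach glycans, 9 of 11 had higher values in dnTCF4, or 5 of 11 when immunoglobulin genes were left out and 2 of 11 after median ratio scaling. Of these subunits, Tusc3 had a log2 fold change of 0.45 (SE 0.27, limma adjusted p = 0.64), or 0.18 without dnTCF4 replicate 3 and 0.67 without dnTCF4 replicate 2, and Magt1 one of 0.22 (SE 0.16, limma adjusted p = 0.69).

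The folding genes Sil1 and Ppib repeated the pattern of dnTCF4 replicate 3. Sil1, the nucleotide exchange factor of BiP, was at 33.04, 31.2 and 8.70 RPKM in dnTCF4, against 26.3, 53.7 and 31.9 in WT (log2 fold change -0.73, SE 0.51, limma adjusted p = 0.68, or -0.14 without dnTCF4 replicate 3). Ppib, cyclophilin B, was at 25.6, 25.1 and 10.1 in dnTCF4, against 24.3, 35.0 and 25.1 in WT (log2 fold change -0.54, SE 0.36, limma adjusted p = 0.67, or -0.13 without that library). Ppp1r15a (GADD34), the phosphatase subunit that ends PERK signalling, was at 5.28, 5.19 and 2.76 in dnTCF4, against 2.84, 2.81 and 3.16 in WT. Like Edem1 and Ddit3, it was higher in dnTCF4 replicates 1 and 2 than in any WT library and low in replicate 3 (log2 fold change 0.42, SE 0.23, limma adjusted p = 0.62, or 0.66 without dnTCF4 replicate 3). Of the export genes, the COPII coat gene Sec23b had a log2 fold change of -0.42 (SE 0.34, limma adjusted p = 0.70) and the cargo receptor gene Surf4 one of -0.28 (SE 0.24, limma adjusted p = 0.71). Without dnTCF4 replicate 3 both were at -0.03.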

How the data were processed

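RNA of sorted ST-HSC was measured in 6 libraries, 3 dnTCF4 and 3 WT, from separate mice per the series description. The labels' protocols name SMART-Seq v4 for the complementary DNA, the series description a SMARTer kit, and both Nextera XT for the libraries, which marks no strand. The authors deposited 1 table of RPKM values, with 53677 gene symbols in rows. The submitters' processing notes list the builds GRCm38 and mm10 and the tools edgeR, DESeq2, featureCounts and STAR, without roles or versions.

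RPKM multiplied by union exon length in GENCODE M21 gave whole reads, within 0.02 of a read, for 94.4% to 95.2% of genes checked per library, and so the depth. These reads entered an added voom fit of 10004 genes. The test was limma 3.58.1 (R 4.3.3; two-sided, eBayes with a trend, genotype the only term) of log2(RPKM + 1), for the 11326 genes whose mean was 1 RPKM or more, with Benjamini-Hochberg adjustment over them. Fold changes understate the change of genes near the pseudocount of 1. An exact permutation test of 3 against 3 cannot go below 0.1 and was not used. The script was tested on simulated data. Replicate numbers come from the labels. Deviations of same-numbered libraries correlated at 0.17, 0.35 and 0.30, each above 0.1, so the numbers were taken as pairs, and a fit with the replicate number as a block was an alternative.

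The members, gene lists and tests were chosen with earlier results of these data known, so no test over a list was made. Full values are given for up to 6 tested members per group with the smallest p, for Hspa5, Xbp1, Atf4, Ddit3 and Herpud1, and for up to 2 genes of each other list. The values of Calr, Canx and Pdia3 are given outside that rule and were chosen after they were seen. So were the fold changes of P4hb, Dnajc3, Ssr2, Ssr3 and Ssr4. The values of Pax5, Kit and Slamf1 are also outside the rule. Promoter sequences are those of RefSeq, GRCm38.p6. Figures were drawn with matplotlib 3.10.9 and tables made with pandas 2.3.3 and numpy 2.4.6 in Python 3.11.15.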

Additional observations from a re-analysis of the deposited data

How the results depend on the processing

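Of 41 tested genes, 0 were called in each of 17 other fits, and the count was also 0 with the replicate block, where the lowest adjusted p was 0.20. That block called 2 of the other pathway genes and markers, Mzb1 and Pou2af1, where the fit without it called 0, and it changed no call among the 41. Over all genes, 34 calls became 49 with the replicate block, 6 without a filter, 18 after median ratio scaling, 0 with immunoglobulin genes left out (666 at an unadjusted p under 0.05; voom with these genes kept called 14), 10 with replicates 2 and 3 only, 86 with array weights and 7 to 34 without 1 library. Other pathway genes and markers called numbered 1 after median ratio scaling, 2 by quantile normalization, 5 with array weights, and 15 in a fit with the replicate block and without immunoglobulin genes, an alternative added after seeing the data, in which all genes gave 51 calls. Median log2 fold changes moved with scaling. After median ratio scaling they were -0.28 for all 41, -0.40 for chaperones, -0.28 for the translocon, -0.29 for degradation and -0.11 for sensors. With immunoglobulin genes left out, with or without the replicate block, they were -0.19, -0.31 and -0.18 for all 41, chaperones and translocon. The translocon median was 0.046 by quantile normalization. At a mean of at least 5 RPKM the chaperone median was -0.44 and that of degradation 0.0071, both from fewer genes, and with replicates 2 and 3 only the chaperone median was -0.34. Leaving out 1 library gave medians from -0.13 to -0.016 for all 41, -0.32 to -0.14 for chaperones, -0.081 to 0.017 for the translocon, -0.22 to -0.016 for degradation and 0.022 to 0.22 for sensors. The low end for chaperones came without WT replicate 1, and the high end for sensors without dnTCF4 replicate 3. Where not given, the cause was not tested.

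Of the log2 fold changes of genes named by the rule above, 38 reversed in other fits, of genes between -0.26 (Derl2) and 0.22 (Magt1) as deposited. After median ratio scaling Spcs1 was at -0.025, Ssr1 at -0.11, Atf6 at -0.11, Eif2ak3 at -0.11, Herpud1 at -0.22, Magt1 at -0.0070, Cd79b at -0.15 and Trac at -0.047. With immunoglobulin genes left out, with or without the block, Ssr1 was at -0.0079, Atf6 at -0.025, Eif2ak3 at -0.056, Herpud1 at -0.12 and Cd79b at -0.044. By quantile normalization Atf6 was at -0.024, Eif2ak3 at -0.084 and Herpud1 at -0.00376, and with array weights Ddit3 was at 0.21, Eif2ak3 at -0.00393 and Herpud1 at -0.12. Leaving out 1 library gave ranges that crossed 0 for Sec61b (-0.51 to 0.028), Derl2 (-0.41 to 0.014), Edem3 (-0.26 to 0.050), Atf6 (-0.036 to 0.16), Ern1 (-0.23 to 0.048), Ddit3 (-0.31 to 0.41), Eif2ak3 (-0.084 to 0.091), Herpud1 (-0.084 to 0.096), Cd79b (-0.016 to 0.22) and Trac (-0.25 to 0.23). Igkc and Ighm lost their call in 10 of the other fits each. Trib3 rests on 4 to 38 reads per library, and the tested members whose reads could be recovered on at least 291.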
